A study of Bos taurus with 10 samples.

Results

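The most deeply covered CG sites were the 520 sites with the highest coverage among 51950 CG sites that had at least 8 reads in all 10 libraries, sequences X and MT left out. For each site the median of its number of reads over the 10 libraries was taken, and the top 1 % of sites by this median was kept. Each strand of a CG counted as a site of its own. Members were thus chosen by coverage alone, so that their numbers of reads are given as a description, while their methylation levels were not used by the choice. The 3 members just inside the threshold had medians of 684.5, 684.0 and 682.0 reads, and the 3 sites just outside had 680.5, 678.5 and 676.0 reads.

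DNA methylation was profiled by reduced representation bisulphite sequencing (RRBS) of 10 bovine tissues with 1 library each, taken from a Hereford cow and its relatives, so that there are no replicates and every comparison of tissues compares single libraries. Adult tissues were nucleated blood cells, intercaruncular uterus, skeletal muscle, whole testis and the mammary gland at 90 d of lactation. Ileum, abomasum, frontal cortex and the parenchyma of the mammary gland were juvenile, and rumen was fetal at 180 d. Rumen and testis came from males and the remaining 8 from females, and each level is a mean over the cell types of a sample. The number of reads summed over cytosines ran from 16125651 in abomasum to 40089443 in testis.

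In mammals a methyl group is placed mainly on cytosines of CG sites, on both strands. Bisulphite turns unmethylated cytosines into uracil and leaves methylated ones, and the methylation level is the percentage of reads that still show a cytosine. Genomes of mammals hold many copies of transposable elements and satellite sequences, and most copies carry methylated CG sites in somatic cells, while germ cells of the male set their pattern separately. RRBS begins with a cut by *MspI* at CCGG and reads the ends of the fragments, so that coverage gathers in short stretches beside these sites.

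The sequences below are stretches that carry many of the members or that recur at several members, because the results turn on how they compare. They were joined from the bases that the files give around each cytosine and are written on the forward strand of UMD3.1. Capitals mark the CGs that hold a member on either strand. The first pair holds a stretch that chromosomes 7 and 25 share on opposite strands.
chr7:89223392-89223437: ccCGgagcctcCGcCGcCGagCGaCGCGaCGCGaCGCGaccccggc
chr25:32361756-32361815: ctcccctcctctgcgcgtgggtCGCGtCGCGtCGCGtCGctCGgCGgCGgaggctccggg
chr1:31242549-31242635: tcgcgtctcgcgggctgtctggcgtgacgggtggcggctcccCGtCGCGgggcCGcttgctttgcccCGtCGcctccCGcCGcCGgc
The next set holds a member of each of the 3 groups of recurring sequence described further on. The stretch of group B on chromosome 4 held the 3 members that had the highest deposited number of reads in every library, and the pair of stretches from chromosome 3 start alike. The shorter of this pair has 17 bases, and a group could be assigned only to stretches of at least 25 bases. Its label outside the groups thus means that it could not be assessed.
group A, chr4:28981098-28981167: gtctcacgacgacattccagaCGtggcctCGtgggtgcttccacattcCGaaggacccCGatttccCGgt
group B, chr4:41483113-41483210: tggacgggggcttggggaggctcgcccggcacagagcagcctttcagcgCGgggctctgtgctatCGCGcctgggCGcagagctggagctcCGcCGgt
group B, chr3:95023808-95023858: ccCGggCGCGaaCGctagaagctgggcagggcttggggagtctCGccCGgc
outside the groups, chr3:1039120-1039136: ccCGggCGCGaacgcta
group C, chr8:74657227-74657288: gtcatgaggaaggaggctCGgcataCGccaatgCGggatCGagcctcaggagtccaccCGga

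Coverage of the members was high in every library. The median member had 409.5 reads in abomasum and 1536.5 reads in frontal cortex, the lowest and the highest of the libraries, where the median of the other sites was 12 and 34 reads. In relation to the other 51430 CG sites of the same library, the median member had 22.4 times the reads in testis and 45.2 times in frontal cortex. Members were 1 % of the sites and took between 35.9 % of the reads at these CG sites in abomasum and 46.9 % in frontal cortex. A member with a high median could still be shallow in a single library. On chromosome 1, the reverse strands at 31242630 and 31242633 had 8 reads each in the lactating gland, the fewest of any member in any library.

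The highest deposited number of reads, 65535, appears to be a ceiling, since it was the maximum in every library. It was carried by 23 members in at least 1 library, by 3 members in all 10 and by 0 of the other CG sites. The highest median, 65535 reads, was shared by 10 members, 4 on chromosome 3 and 6 on chromosome 4, so that they have no order of coverage among them. The first 5 by position were the forward strands at chr3 1039122, 1039126, 1039128 and 1039163 and the reverse strand at chr4 41483163. Their mean levels over the 10 tissues were 70.2 %, 55.2 %, 80.5 %, 62.4 % and 7.19 %. The site of low level on chromosome 4 lay on the stretch shown above, beside the other 5 of these members, with mean levels from 79.96 to 91.4 %.

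Methylation of the members was higher than that of the other CG sites in every tissue. The mean level of the members was 44.9 % in testis, 52.9 % in frontal cortex, 55.3 % in rumen, 56.6 % in the lactating gland, 58.1 % in skeletal muscle, 59.0 % in abomasum, 61.7 % in uterus, 62.0 % in mammary parenchyma, 63.8 % in ileum and 65.5 % in blood cells. The other CG sites had means between 24.2 % in testis and 31.9 % in blood cells. Members were higher by 29.6 ± 4.19 points (SD over the 10 tissues), with this sign in 10 of 10 (two-sided exact permutation test by flipping the signs of the tissues, p = 0.00195, the smallest this test can give, adjusted p = 0.00244 over 5 such tests). The tissues were compared at the same sites. The p-values of this test, here and below, thus do not cover the spread between sites or clusters. The order of the tissues cannot be set against an error, because each tissue is 1 library.

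This difference depended on which sites stood beside the members. Among sites with at least 20 reads in every tissue, 517 of the members averaged 58.1 % and the other 6877 sites 52.4 %, a difference of 5.68 ± 1.85 points with the same sign in 10 of 10 tissues (p = 0.00195 by the same exact test). Where the top 1 % was chosen anew among those sites, 74 sites with a median of at least 3432.5 reads averaged 47.6 % and were lower than the rest by 5.32 points, in 9 of 10 tissues (exact permutation p = 0.00391). Members were also lower than the sites ranked between 1 and 5 % of coverage, by 7.91 ± 1.90 points in 10 of 10 tissues (exact permutation p = 0.00195). Along the coverage, the mean level over the tissues was 58.0 % at the members, 65.4 % in the band from 1 to 2 %, 66.1 % from 2 to 5 %, 54.9 % from 5 to 10 %, 19.5 % from 10 to 50 % and 29.7 % at the remaining sites. The high level was thus shared by the bands of the deepest 10 %, and its peak lay below the members.

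**Figure D1:**
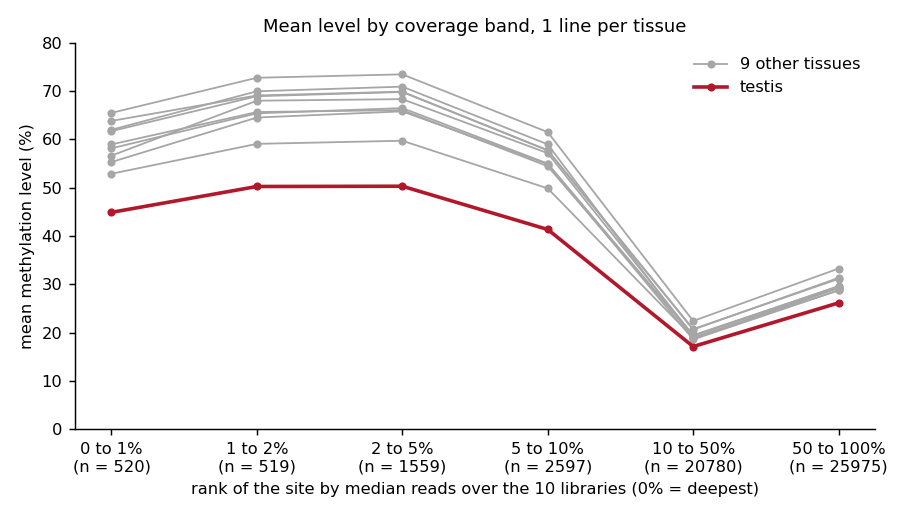
Mean methylation level in percent against the rank of the sites by median reads, from the deepest 1 % on the left to the shallowest sites on the right, with 1 line for each of the 10 tissues. Testis lay below the other 9 tissues in each of the 6 bands, and every line peaked between 1 and 5 % in rank and not at the deepest sites.

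Levels of the members were spread over the whole range. In blood cells 13.1 % of the members were below 20 % and 48.8 % above 80 %, whereas in the lactating gland 30.4 % were below 20 % and 40.0 % above 80 %. Of the other sites, between 63.1 % in blood cells and 66.7 % in testis were below 20 %. Testis stood apart in the upper class, since 37 members, or 7.12 %, were above 80 % in testis, against 129 members in frontal cortex and 254 in blood cells, the lowest and the highest of the other 9 tissues. In testis 66.3 % of the members lay between 20 and 80 %, against 29.6 to 51.0 % in the others.

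**Figure D2:**
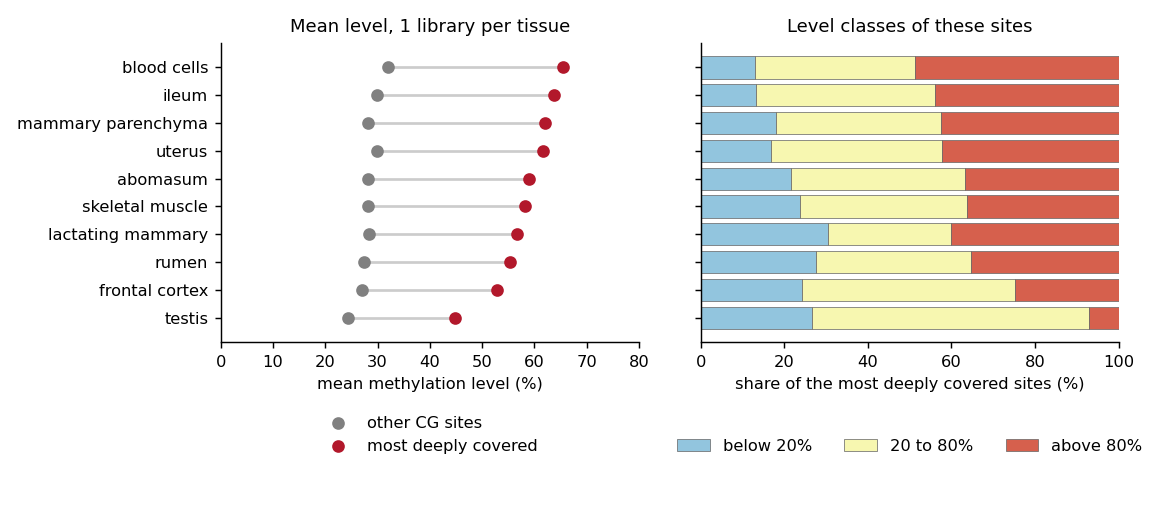
Left, the mean level in percent of the 520 most deeply covered sites and of the other CG sites in each tissue. Right, the share of the 520 sites below 20 %, from 20 to 80 % and above 80 %. The members were above the other sites in all 10 tissues, and testis had the smallest share above 80 %, at 7.12 %.

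Testis had the lowest mean level at the members, with 44.9 % against 59.4 ± 4.14 % (SD, n = 9 tissues) in the others, whose range was 52.9 to 65.5 %. The difference of 14.5 points was 3.51 times that SD. At the other CG sites testis had 24.2 % against 28.8 ± 1.50 %. The gap between members and other sites was 20.6 points in testis and 30.6 ± 2.92 points in the other 9 tissues. With 1 testis library an exact permutation test of 1 tissue against 9 cannot go below p = 0.1, and p was 0.1 for all 3 of these comparisons. Among sites with at least 20 reads in every tissue, testis was lower by 14.6 points at the members and by 14.4 points at the other sites, so that the gap between members and other sites differed from that of the other tissues by -0.204 points (exact permutation p = 0.9).

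At single sites, the level in testis was below all 9 other tissues at 296 members, or 56.9 %, where the share over all 51950 CG sites was 16.6 %. It was above all 9 at 7 members, or 1.35 %, against 5.47 % of all CG sites. Neighbouring members share reads, so these are not 296 independent events, and the 136 clusters of members described further on give 98 clusters with testis lowest. The same count over clusters of all CG sites is not given here, and shares of single sites are no background for it. The gap followed the level of the other tissues. Members whose mean in the 9 other tissues was above 80 % averaged 89.5 % there and 70.0 % in testis, and 201 members were in this class. Other CG sites of that class averaged 91.3 % and 78.9 % in testis. Members below 20 % averaged 9.68 % in the 9 tissues and 6.62 % in testis.

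**Figure D3:**
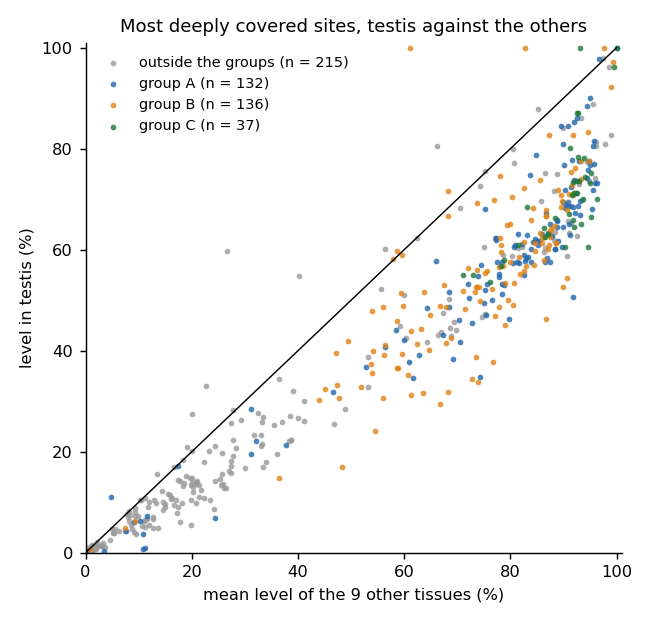
Level in testis against the mean of the 9 other tissues, both in percent, with 1 point for each of the 520 members, coloured by group of recurring sequence, and a line where both are equal. Most points lay below the line, and 486 of the 520 members, or 93.5 %, were lower in testis than the mean of the others, as were 66.4 % of all CG sites.

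Differentially methylated cytosines (DMCs) are cytosines at which the reads of 2 libraries differed by 25 points or more, with a q-value under 0.01 in Fisher's exact test. At least 1 of the 45 pairs differed at 322 members, or 61.9 %, where the share over all CG sites was 19.1 %. Deep sites pass such a test at differences that shallow sites cannot. With the reads at each site thinned to its lowest coverage, 313 members passed, or 60.2 %, against 5.32 % of all CG sites. This evens the libraries at a site but leaves members deeper than other sites, so it is no control for depth. In abomasum, the shallowest library, the median was 409.5 reads at members and 12 at the others. With every site thinned to 20 reads, 10 of 517 members passed, or 1.93 %, against 3.85 % of the sites that had 20 reads. With a difference of at least 40 points, 53 members passed, or 10.2 %, against 11.5 %. The share of members above the background therefore did not hold at 20 reads or for differences of at least 40 points.

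Pairs with testis gave most of the calls. Between 26 members, with frontal cortex, and 228 members, with blood cells, differed from testis, and the shares over all CG sites were 3.15 and 9.81 % for these pairs. In the pair with blood cells, 226 of the 228 members were lower in testis. Pairs without testis gave between 0 and 70 members, with a median of 7.5, and the most came from ileum against the lactating gland, with 69 of 70 higher in ileum and 2.22 % of all CG sites called. In all, 168 members were called in pairs with testis only, or 32.3 %, against 8.18 % of all CG sites, and 154 members were called when testis was left out, against 11.0 %.

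Few members differed from all 9 other tissues in 1 tissue and direction. Such calls placed 13 members lower in testis, against 0.531 % of all CG sites, and 1 member higher in testis, against 0.0154 %. They placed 4 members lower in the lactating gland, against 0.0423 %, and 1 member higher in abomasum, against 0.0115 %. Of the 13 members lower in testis, 8 lay on the stretch chr3:95023808-95023858 shown above, which held 10 members. The mean of those 10 members was 40.4 % in testis and 77.8 % in the other tissues, whose range was 71.1 to 84.0 %.

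The members with the largest gaps between testis and the nearest tissue lay on chromosomes 7, 3 and 29. On the reverse strand at chr7 66692538, testis had 50.6 % on 259 reads (95 % Wilson interval 44.5 to 56.6 %), against 85.4 % in frontal cortex, 92.6 % in the median tissue and 95.5 % in mammary parenchyma. At chr3 95023817, 95023810 and 95023851, the levels in testis were 52.6 %, 46.4 % and 37.7 %, and the nearest tissues had 84.6 %, 76.4 % and 67.4 %. In the opposite direction, the reverse strand at chr29 19417788 had 100 % in testis on 288 reads (interval 98.7 to 100 %), while the other 9 tissues ranged from 48.6 to 70.6 %. All 5 members had fewer reads in testis than their medians, with 259 against 1281.5 reads at the first, 1236, 1098 and 1113 against 1680.5, 1992.5 and 2201.0 on chromosome 3, and 288 against 1065.0 at the last. The member at chr29 19417788 was the only one that a DMC call placed above all 9 other tissues in testis. Its cluster of 5 members within 42 bases had a median of 886 reads and a mean level of 57.3 % in testis, this member included. The part of the missing reads in its level of 100 % was not tested, and the interval does not cover it.

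Other tissues stood apart at few members. At chr20 72019773 (reverse strand) the lactating gland had 10.5 % on 392 reads (interval 7.80 to 13.9 %), while the other tissues ranged from 51.2 to 69.1 %. At chr13 54296227 (forward) it had 28.2 % on 177 reads (interval 22.1 to 35.3 %), against 63.9 to 83.3 %. Abomasum had 100 % on 132 reads at chr29 19421871 (reverse), where the others ranged from 30.7 to 60.7 %, and 77.6 % on 214 reads at chr10 68738303 (forward), where the others were between 97.6 and 99.7 %. Mammary parenchyma had 35.5 % on 282 reads at chr7 12141022 (reverse), against at most 16.2 % elsewhere. In each of these 5 cases the tissue that stood apart had fewer reads at the site than the median of the libraries, and the part of this in the result was not tested.

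Members were gathered in short stretches. Joining members at most 1000 bases apart gave 136 clusters, of which 37 held 1 member and 36 held at least 5, with 297 members in these. The median span of a cluster was 30 bases. In 121 clusters the span was at most 49 bases, and 112 of these lay on 1 strand. Members on a stretch like these are read by the same fragments and are not independent. Levels varied less within clusters than between them, with an SD of 16.4 points within clusters and of 26.6 points between cluster means. The mean level was below 20 % in 15 clusters, between 20 and 80 % in 70 and above 80 % in 51.

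**Figure D4:**
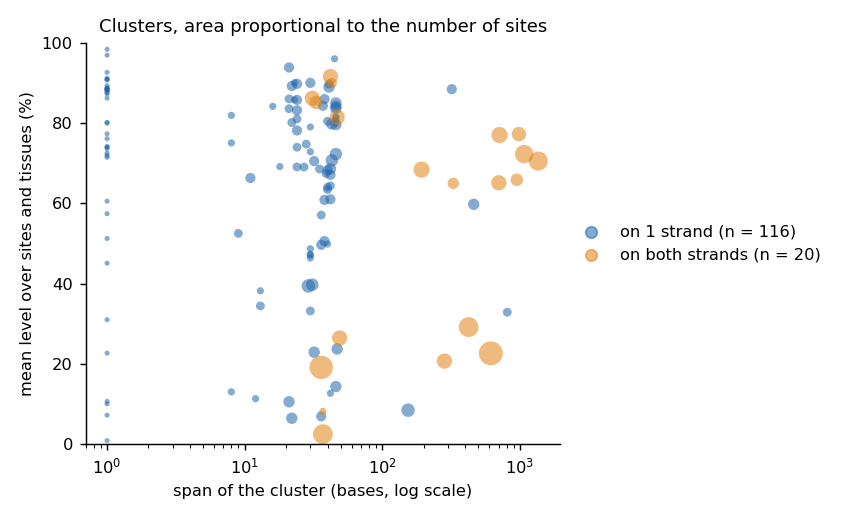
Mean level in percent over sites and tissues against the span in bases, on a log scale, for the 136 clusters of members, with the area of a point proportional to its number of members. Most clusters were at most 49 bases long and on 1 strand, and the long ones on both strands included clusters of low and of high level.

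Many clusters lay near each other. Within 100000 bases of each other, the 136 clusters formed 88 regions, of which 24 held at least 2 clusters and together 283 members. The region with the most members was chr29:19417788-19444157, with 31 members in 7 clusters and a mean level of 50.5 % in testis and 68.3 % in the other tissues. The next were chr25:32361778-32374183 with 27 members, chr7:89221032-89227285 with 26, chr13:48992552-49020934 with 24 and chr4:41468640-41492588 with 23. Levels differed widely between regions, since chr8:74657245-74748684 averaged 89.6 % over its 14 members and chr3:8102851-8111224 averaged 3.1 % over its 17.

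The chromosomes carried unequal numbers of members. Chromosome 3 held 58 members, chromosome 4 held 46, chromosome 7 held 42, chromosome 8 held 39 and chromosome 25 held 35, in all 220 or 42.3 % of the members, on chromosomes with 22.7 % of the sites. In relation to its sites, chromosome 27 had the most, with 2.89 members per 100 sites. Members were found on 27 of the 29 autosomes, and chromosomes 19 and 24 held 0. Forward and reverse strands held 276 and 244 members.

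The sequence that the files name chr_defined is not a numbered chromosome and was read here as sequence not placed on one, although the sources used here do not say what it holds. It carried 8 members in 3 clusters, or 1.54 % of the members, against 1.39 % of all CG sites and 5.10 % of the sites ranked between 1 and 5 %. These 8 members averaged 80.6 % over the tissues, from 60.2 % in testis to 88.8 % in blood cells, and the 512 members on chromosomes averaged 57.6 %. The difference of 22.9 ± 4.15 points had the same sign in all 10 tissues (exact permutation p = 0.00195, adjusted p = 0.00244). It rested on few sites, 5 of which lay within 46 bases, and with the top 2 % of sites in place of 1 % it was -0.705 points (exact permutation p = 0.357).

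The 6 clusters with the most members fell into low and high levels. The largest, chr1:31242591-31243205, held 22 members and had 16.0 % in testis and 23.4 % in the other tissues, which ranged from 5.0 % in the lactating gland to 39.0 % in blood cells. The 21 members at chr7:89223394-89223429 had 16.7 % in testis and between 4.6 % in the lactating gland and 34.6 % in ileum elsewhere. The 15 members at chr25:32361778-32362201 had 18.5 % in testis and between 9.1 % in the lactating gland and 49.5 % in ileum. In these 3 clusters the lactating gland was the lowest tissue, not testis, and rumen the next, with 12.6 %, 9.4 % and 16.8 %. The lactating gland had few reads at the cluster on chromosome 25, with a median of 51, against 5707 in testis, and 742 and 4321 at the clusters on chromosomes 1 and 7. Within the chromosome 1 cluster, its reverse-strand members from 31242592 to 31242633 had only 8 to 74 reads in this gland.

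The other 3 of these clusters differed from that pattern. The 15 members at chr3:8111188-8111224, in a stretch rich in GCC, were between 1.2 % in rumen and 5.1 % in blood cells, with 1.8 % in testis. The 14 members at chr29:19430428-19431787 had 50.8 % in testis and 67.0 to 79.7 % elsewhere. The 13 members at chr3:95023810-95024885 had 42.5 % in testis and 68.9 to 82.3 % elsewhere, so that testis was lower by 33.1 points. Over all 136 clusters, testis was below the mean of the other tissues in 134, and the difference ranged from -40.3 points at chr7:66692538-66692567 to 12.3 points at chr13:54296197-54296227, where testis had 82 reads. No such count is given here for clusters of other sites. With each cluster counted once, the gap between members and other sites in testis differed from that of the other tissues by -9.83 points.

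Sequence was compared by words of 25 bases that occur more than once in the stretches of the covered genome, on either strand. Repeats of a word within the same stretch count as well. Such a word overlapped 320 of the 464 members that could be assessed, or 69.0 %, and 12.4 % of the other CG sites. The share was 72.8 % at the sites ranked between 1 and 5 %, so that at this length it was no higher at the members than just below them. With words of 20 bases the shares were 73.6 % of members and 18.0 % of other sites, and with 30 bases 64.5 and 9.91 %. At the sites ranked between 1 and 5 %, they were 80.3 % with 20 bases and 64.1 % with 30 bases, the latter close to that of the members. Only bases near covered cytosines enter these counts, and copies elsewhere in the genome were not analysed here. The name multi-copy was checked in this sense alone.

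Joining stretches that share a word gave 3 large groups with members, labelled A, B and C, which were formed after the values were known and are given as a description. Group A joined 2320 stretches and held 132 members in 49 clusters on 20 chromosomes. Group B joined 594 stretches and held 136 members in 27 clusters on 8 chromosomes. Group C joined 219 stretches and held 37 members in 15 clusters on 8 chromosomes. Together they held 305 of the 520 members. No annotation of this build was used here, so the groups were not matched to named repeats.

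Members of the groups were highly methylated. Group A had 55.8 % in testis, 64.5 % in frontal cortex, the lowest of the other tissues, and 79.9 % in blood cells, the highest. Group B had 54.6 % in testis and from 66.5 % to 78.8 % in the same tissues. Group C had 70.8 % in testis and from 81.5 % to 92.7 %. The difference between testis and the mean of the other 9 tissues was -19.1, -18.7 and -19.0 points in groups A, B and C, and the other CG sites in the same groups gave -20.7, -19.7 and -23.2 points. The 3561 other CG sites of group A had a median of 54 reads against 1071 at its members, and their mean levels were 53.4 % in testis and 74.2 % in the other tissues, close to those of the members. Testis was below all other tissues at 107 members of group A, 105 of group B and 32 of group C, with a background over all CG sites of 16.6 %. These were 81.1, 77.2 and 86.5 % of the members, against 66.4, 65.4 and 77.8 % of the other CG sites in the same groups. At sites of these groups ranked between 1 and 5 %, the shares were 74.3, 77.8 and 76.8 %.

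Members outside the groups had a different profile. These 215 members averaged 27.6 % in testis and 35.9 % in the other tissues, from 27.8 % in the lactating gland to 43.5 % in blood cells, and their difference of -8.3 points was smaller than that of each group. Testis was below all other tissues at 52 of them, or 24.2 %. Over the 215 members the lactating gland, not frontal cortex, was the lowest tissue beside testis. Of these members, 56 lay on stretches shorter than 25 bases, which could not join a group. These 56 resembled the groups, with 51.0 % in testis and 65.7 % in the other tissues, and frontal cortex was the lowest of these. Testis was below all other tissues at 69.6 % of them. The 159 members that could be assessed averaged 19.4 % in testis and 25.4 % in the other tissues, with testis lowest at 8.18 %. All 13 members with a testis-specific call for lower levels belonged to groups A, B or C, and 0 of the 215 members outside did. They were 3 of 132 members in group A, 9 of 136 in group B and 1 of 37 in group C. Among the other CG sites of these groups, such calls fell on 87 of 3561, 40 of 1210 and 35 of 316. Over all CG sites the share was 0.531 %. Such a call needs testis to be lower by 25 points or more, which sites of low level in the other tissues cannot show. The other tissues averaged 76.0 % at the members of the groups. Members in and outside the groups were not matched for level, so the split of the calls and the smaller difference outside are a description only.

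Stretches with the same bases did not always have the same level at the places to which their reads were mapped. Each read was 49 bases long, little more than the longest of the shared stretches. Whether reads were placed at the copy they came from was not tested, here and in the comparisons of copies below. The stretch of group B at chr4:41483113-41483210 shares 46 bases with the most deeply read part of the chromosome 29 cluster, on opposite strands, and 44 with a stretch at chr13 49020908. At 4 CGs that are members in all 3 places, the mean over the 9 other tissues was 86.1 % on chromosome 4, 82.7 % on chromosome 13 and 50.1 % on chromosome 29. In testis the levels were 62.4 %, 58.5 % and 21.8 %. The ranges of the 9 tissues did not overlap between chromosome 29, with 42.7 to 59.6 %, and the other copies, with at least 77.4 %. The median coverage of these sites was 65535 reads on chromosome 4, the highest deposited number, 903 on chromosome 13 and 35836 on chromosome 29. The part of coverage in the difference of levels was not tested. Testis was lower than the other tissues by 23.7, 24.2 and 28.3 points.

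The pair of stretches on chromosomes 7 and 25 shown above differed at each of the 10 CGs matched between them. Mean levels over the 10 tissues were between 19.6 and 46.9 % on chromosome 25 and between 7.86 and 20.1 % on chromosome 7. The largest difference was at chr25 32361797 and its counterpart chr7 89223410, with 46.9 % and 18.3 %. On both copies the CG at base 5 of the shared stretch was lower, with 24.6 and 9.19 %, than that at base 30, with 44.8 and 20.1 %.

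**Figure D5:**
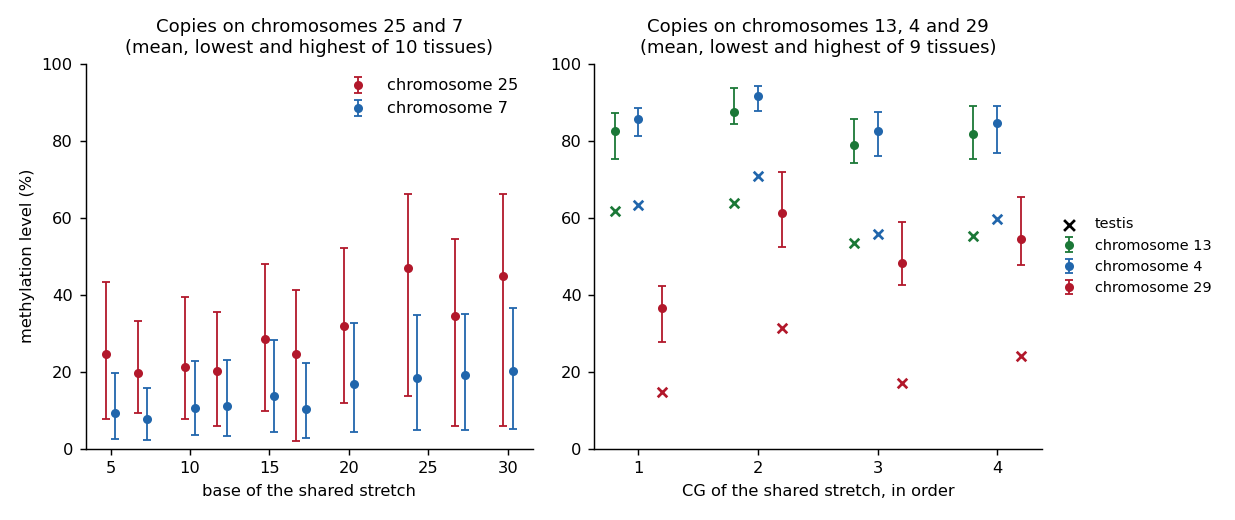
Methylation level in percent at CGs matched between copies of a stretch. Left, the mean, lowest and highest of 10 tissues at 10 CGs on chromosomes 25 and 7, plotted by base of the shared stretch. Right, the mean, lowest and highest of the 9 tissues other than testis, with testis as a cross, at 4 CGs on chromosomes 13, 4 and 29. Chromosome 25 was above chromosome 7 at each of the 10 CGs, and chromosome 29 was below the other copies at each of the 4.

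The chromosome 3 stretches at 95023808 and 1039120 begin with the same 17 bases, and 3 forward CGs in them are members in both places. At these CGs the stretch at 95 Mb averaged 44.2 % in testis and 81.9 % in the other tissues, with a lowest tissue of 75.6 %. The stretch at 1 Mb averaged 66.8 % in testis and 68.8 % in the others, which ranged from 57.0 to 79.3 %, so that testis lay inside their range. The difference of testis was -37.7 points in the first and -2.0 points in the second. Their median coverage was 2194.5 and 65535 reads.

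Among pairs of stretches that shared at least 25 bases, the mean absolute difference at matched members had a median of 2.36 points in 37 pairs of group C, 6.19 points in 50 pairs of group A and 8.33 points in 42 pairs of group B. The largest was 81.0 points in group A, 42.6 points in group B and 7.62 points in group C.

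Neighbouring members could also differ sharply. On the same strand and at most 20 bases apart, 308 pairs of members differed by 11.9 points on average, and 40592 pairs of other sites by 4.79 points. Most other sites had levels below 20 %, where differences are small, and the pairs were not matched for level. A difference above 50 points between the mean levels was found in 12 pairs of members, or 3.90 %, and in 0.820 % of the other pairs. The largest was between chr29 19421002 and 19421008, with 8.97 % and 99.1 %, and it held in every tissue, since the first ranged from 6.22 to 12.1 % and the second from 97.2 to 100 %. On the reverse strand of chromosome 8, 99199600 had 0.0469 % and 99199612 had 76.4 %. Both sites of each pair had nearly the same number of reads.

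The strands of a CG mostly agreed. At 49 CGs both strands were members, and the levels of the strands differed by 5.62 points on average, from 2.22 to 7.83 points among tissues, against 4.46 points at 12849 CGs of which neither strand was a member. The excess of 1.16 ± 1.60 points was above 0 in 9 tissues and below in 1 (exact permutation p = 0.0469, adjusted p = 0.0469). Weighted by coverage, it was -0.378 points (exact permutation p = 0.740). The largest differences were at chr1 31242629, with 15.6 % on the forward and 34.4 % on the reverse strand, at chr4 66531550, with 94.5 and 79.2 %, and at chr1 31242619, with 20.8 and 35.8 %. For 229 members the other strand was not among the sites covered in all 10 libraries.

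Cytosines outside CG sites were little methylated beside the members. The 3296 CHG and CHH cytosines within 100 bases of a member averaged 1.93 % over the tissues, from 1.71 % in testis to 2.19 % in ileum, and the other 93880 averaged 1.37 %. The difference of 0.565 ± 0.10 points had this sign in all 10 tissues (exact permutation p = 0.00195, adjusted p = 0.00244). Of the cytosines beside members, 22 were above 50 % in every tissue, or 0.667 %, against 0.534 % of the others, and without such cytosines the difference was 0.441 points. Incomplete conversion and methylation cannot be told apart in these values.

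Across tissues, a member varied by 26.8 points on average between its lowest and highest level, and the other sites by 17.9 points. Without testis the means were 20.04 and 15.4 points. A range below 10 points was found at 55 members, or 10.6 %, and at 50.6 % of the other sites. A range above 50 points was found at 13 members, or 2.50 %, and at 8.43 % of the other sites. The SD of a member over the 10 tissues averaged 8.22 points, and that of the other sites 5.78 points. Depth and level both differ between members and other sites, and their part in these ranges was not tested.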

How the data were processed

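RRBS libraries of 10 bovine tissues, 1 per tissue, were analysed. After trimming, reads were mapped to UMD3.1 by the authors with a pipeline built on SOAPaligner that ignores conversions of C to T. They deposited, for each cytosine with at least 8 reads, its position, strand, context and number of reads as a count without normalization. They also deposited the methylation level as a fraction of the reads, with a further number of reads, a p-value and its FDR that were not used here. The numbers of reads end at 65535 in every library.

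Methylated reads were recovered as level times reads, a whole number at every cytosine. Levels were averaged over sites without weighting. The tissue was the unit of the exact sign-flip permutation tests, two-sided, with Benjamini-Hochberg adjustment over 5 tests, and testis was set against 9 tissues by exact permutation. For DMCs, each of 45 pairs of libraries was compared by Fisher's exact test, with Benjamini-Hochberg adjustment within a pair over all 152300 cytosines with at least 8 reads in all libraries, after the thresholds of the study (q below 0.01, at least 25 points). The calling was tested on simulated reads. PCR copies were not told apart, so tests and 95 % Wilson intervals cover counting error only and compare libraries.

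Sequences were joined from the deposited 5 bases around each cytosine. The members, groups and lists were chosen with earlier results of these data known. Sites were named by rule: the 6 clusters with the most members, 5 of the 10 members tied at the highest coverage, the first by position, the 3 on each side of the threshold, the 5 largest gaps of testis and of other tissues, at most 2 per tissue, and the 3 largest strand differences. Stretches compared between copies, neighbouring pairs and regions were chosen after their values were seen. Genes were not analysed here, since the annotation at hand is of another build. Numba 0.67.0, pandas 2.3.3, SciPy 1.17.1, NumPy 2.4.6 and matplotlib 3.10.9 were used in Python 3.11.15, with a random seed of 1.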

Additional observations from a re-analysis of the deposited data

Results flagged for a closer look

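In 13 sets of 10 values, 1 per tissue, the gap between an extreme tissue and its nearest neighbour was compared with the whole range, and 3 sets exceeded Dixon's 95 % limit. Chance exceeds it in about 1 of 20 such sets. The median number of reads at the members was 409.5 in abomasum, far below the other 9 libraries, with a gap of 0.571 of the range. The mean level was 54.6 % in testis at the members of group B and 70.8 % in testis at those of group C, with gaps of 0.491 and 0.488 of the range. Both groups were measured in the same testis library, so these values are not independent of each other.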

How the results depend on the processing

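The higher level of the members kept its sign and passed the test under 12 of 14 alternatives, with differences from 5.68 to 34.0 points, and it reversed to -5.32 points with a minimum of 20 reads and to -7.91 points against the sites ranked from 1 to 5 %. The lower level of testis at the members kept its sign under all alternatives tried, from -10.1 to -18.7 points, although no p could fall below 0.1. At -10.1 points, with a minimum of 20 reads, another tissue departed from the rest at least as far as testis, in either direction. The excess of the testis difference at members over other sites was 4.33 points in the opposite direction with a minimum of 20 reads, and otherwise between -11.3 and -0.204 points. Weighted by coverage this excess was -4.87 points, and other tissues departed at least as far. The difference between members on chr_defined and on chromosomes was -0.705 points with the top 2 % of sites, and the excess of the strand difference was -0.378 points when weighted by coverage. DMCs numbered 53 at 40 points or more, 154 without testis and 10 with reads thinned to 20. Members called lower in testis than all 9 other tissues fell from 13 to 0 at 40 points or more and to 0 at 20 reads. Fewer samples, reads or allowed differences enter these by construction. Clusters numbered 70 with the top 0.5 % and 268 with the top 2 % of sites. No paired analysis was possible because each tissue had 1 library. Comparisons at 20 reads with the same members, longer and shorter words, regions of 100000 bases and non-CG cytosines without those above 50 % were added after seeing the data.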
